A study of Mus musculus with 6 samples.

Results

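The proteasome subunit and assembly genes were taken by name: every gene of the deposited count table called Psm, a letter from a to g, and a number. The rule found 48 of 46963 genes, spike-ins left out, and 47 of the 48 passed the filter on low counts, among 14600 genes tested. RNA came from CD43- splenic B-cells of mice in a 129 background, 8 to 12 weeks old, male and female. The wt group carried no deletion, the Emu group lacked the intronic IgH enhancer with its matrix attachment regions, and the 3RR group lacked the 3' regulatory region, the IgH super-enhancer. Cells of each genotype were resting (wt_resting, Emu_resting, 3RR_resting) or had been stimulated for 2 days with LPS (wt_LPS, Emu_LPS, 3RR_LPS). Each of the 6 groups was 1 library, made of cells pooled from 2 mice by the labels. The study's methods give 2 pools for each genotype, while the table has 1 column for each genotype and state, so a second pool is not analysed here.

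The dose of LPS was 5 µg per ml in the sample labels and in the study's methods, while the labels' protocol text gave mg per ml. The labels describe resting cells as cultured for 2 days without LPS, whereas the methods describe them as taken before the stimulation. Time in culture therefore cannot be told apart from LPS in a comparison of the states. Library totals ran from 9111974 gene counts in 3RR_LPS to 21998587 in wt_LPS, with 16094475 in wt_resting, 13406257 in Emu_resting, 20780706 in 3RR_resting and 10936243 in Emu_LPS. Levels are given as CPM, counts of a gene per 1000000 counts of the genes tested, scaled by the TMM method. At these depths 3 counts equal 0.144 CPM in wt_LPS and 0.337 CPM in 3RR_LPS.

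The proteasome is the protease that degrades ubiquitin-tagged proteins. Its 20S core is a barrel of alpha rings and beta rings, and Psmb5, Psmb6 and Psmb7 encode the proteolytically active beta subunits. In immune cells Psmb8, Psmb9 and Psmb10 encode subunits that can replace them in that order, which gives the immunoproteasome and a different mix of peptides for MHC class I molecules. The 19S cap, built from ATPases (Psmc) and non-ATPases (Psmd), recognises and unfolds substrates, Psme genes encode other activators, Psmf1 an inhibitor, and Psmg genes chaperones that assemble the core.

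Promoters of Psmb5, Psmb6 and Psmb10, which encode catalytic subunits, and of Psma6, the member with the largest LPS effect, are printed here because these genes carry results below; Psmb7 has no entry in the promoter table. They are the bases before the RefSeq start (GRCm38.p6) that lie outside every annotated exon. Capitals mark any match, on either strand, to 6 motifs. These were CCAAT (the NF-Y box), TGACNNNGC (the antioxidant response element core), CCGGAAG (the ETS core), CACGTG (the E-box), GAAANNGAA (an interferon response core) and GGGANNNCC (a kappa B core), and overlapping matches run together. Psma6 has 2 starts in the table and both windows are given.
Psmb5, chr14:54618023-54618245, minus strand, 223 bases: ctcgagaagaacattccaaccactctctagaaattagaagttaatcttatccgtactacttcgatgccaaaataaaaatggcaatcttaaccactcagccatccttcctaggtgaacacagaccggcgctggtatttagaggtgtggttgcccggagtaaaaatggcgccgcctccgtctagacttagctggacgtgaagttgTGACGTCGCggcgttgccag
Psmb6, chr11:70525107-70525356, plus strand, 250 bases: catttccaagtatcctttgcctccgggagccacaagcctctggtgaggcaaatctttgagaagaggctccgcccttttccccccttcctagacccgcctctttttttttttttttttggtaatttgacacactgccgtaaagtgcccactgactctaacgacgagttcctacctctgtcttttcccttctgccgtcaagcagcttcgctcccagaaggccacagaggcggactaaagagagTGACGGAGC
Psmb10, chr8:105938445-105938642, minus strand, 198 bases: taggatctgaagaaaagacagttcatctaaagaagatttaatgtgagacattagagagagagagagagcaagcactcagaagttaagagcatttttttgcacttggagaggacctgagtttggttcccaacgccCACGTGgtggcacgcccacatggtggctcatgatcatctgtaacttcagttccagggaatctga
Psma6, chr12:55383972-55384221, plus strand, 250 bases: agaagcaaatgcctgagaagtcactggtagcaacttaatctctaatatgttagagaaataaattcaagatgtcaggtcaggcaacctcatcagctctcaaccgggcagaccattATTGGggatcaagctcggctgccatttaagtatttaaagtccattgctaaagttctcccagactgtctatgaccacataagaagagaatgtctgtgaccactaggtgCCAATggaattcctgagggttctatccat
Psma6, chr12:55398575-55398774, plus strand, 200 bases: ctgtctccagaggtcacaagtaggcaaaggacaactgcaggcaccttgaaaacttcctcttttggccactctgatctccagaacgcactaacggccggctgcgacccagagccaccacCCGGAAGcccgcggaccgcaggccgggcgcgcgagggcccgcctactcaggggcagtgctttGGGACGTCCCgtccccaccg

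Of the 48 members, 40 had a window of 250 bases in the promoter table. A gene counts as a match where any of its windows holds the motif, and the 40 members have 43 windows. CCAAT was in 14 of the 40 members and in 37.5% of the 27025 genes with windows of that length. TGACNNNGC was in 5 members and in 11.5% of all genes. The motif CCGGAAG was in 12 of the 40 members and in 7.83% of all genes. CACGTG was in 4 members and 6.86% of genes, GAAANNGAA in 3 members and 8.18%, and GGGANNNCC in 9 members and 17.8%. These matches are a description of letters. The windows of Psmb8 and Psmb9 lay within annotated exons and are not printed. In the annotation (GRCm38), Psmb9 lies at chr17:34181987-34187764 on the minus strand and Psmb8 at chr17:34197721-34201454 on the plus strand, and Psmb10 at chr8:105935735-105938444 on the minus strand.

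Marker genes were read before the proteasome genes. The 7 B-cell markers summed to 5851 CPM in wt_resting, 4491 in Emu_resting, 5670 in 3RR_resting, 2749 in wt_LPS, 2430 in Emu_LPS and 3038 in 3RR_LPS, and Cd74 was the most abundant. All 7 were detected in every library, and 2 of the 7, Cd74 and Cd22, fell with LPS. Cd74 went from 3152 CPM in wt_resting to 820 in wt_LPS. Ms4a1 went from 339 to 584 CPM in wt, from 444 to 421 in Emu and from 462 to 260 in 3RR. The 5 erythroid markers summed to 3356 CPM in wt_resting, 20101 in Emu_resting and 3859 in 3RR_resting. With LPS they summed to 53.0 CPM in wt_LPS, 671 in Emu_LPS and 133 in 3RR_LPS. Emu_resting therefore stood apart from the other libraries in erythroid RNA. Hba-a1 led in wt_resting, 3RR_resting and 3RR_LPS, and Hbb-bs in Emu_resting, wt_LPS and Emu_LPS. All 7 myeloid markers were lower with LPS. Their sum was 151 CPM in wt_resting, 365 in Emu_resting and 153 in 3RR_resting, and 21.4 in wt_LPS, 35.4 in Emu_LPS and 28.2 in 3RR_LPS. Lyz2 was the most abundant in every library except wt_LPS, where Itgam was first. T-cell markers summed to 18.1, 40.6 and 21.6 CPM in wt_resting, Emu_resting and 3RR_resting, with Cd4 first in each. They summed to 1.05, 8.82 and 4.61 CPM in wt_LPS, Emu_LPS and 3RR_LPS, with Cd28 first in each, and 5 of 6 tested fell. Cd3e and Cd8a were at 0 in wt_LPS, and Cd8a also in 3RR_LPS. Dendritic cell markers summed to 36.1, 73.0 and 36.8 CPM in the resting wt, Emu and 3RR libraries and to 29.9, 36.0 and 31.5 CPM with LPS, with Flt3 first, and 4 of 5 fell. Clec9a was at 0 in wt_LPS and 3RR_LPS. Cd14 was at 0 in 3RR_LPS and S100a9 in wt_LPS. In such bulk samples, fewer cells of a type and less RNA per cell cannot be told apart.

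Of the plasma cell markers 2 of 6 rose with LPS, and of the proliferation genes 6 of 6. Prdm1, a regulator of plasma cell differentiation, had a log2 fold change of 3.04 ± 0.34 (SE) and Xbp1 of 1.86 ± 0.25. The plasma cell list summed to 547 CPM in wt_resting, 2237 in Emu_resting and 592 in 3RR_resting. With LPS it summed to 582 CPM in wt_LPS, 1591 in Emu_LPS and 893 in 3RR_LPS. The sum was thus higher with LPS in wt and 3RR and lower in Emu. Jchain was its most abundant gene in both Emu libraries, and Irf4 in the wt and 3RR libraries. The proliferation genes went from 226, 360 and 324 CPM in resting wt, Emu and 3RR cells to 1821, 1659 and 2040 CPM with LPS. Mki67 was first in both Emu libraries and in 3RR_LPS, Pcna in wt_resting and 3RR_resting, and Top2a in wt_LPS. The part that these changes in cell types and in division have in the proteasome results was not tested.

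The proteasome genes were higher with LPS in all 3 genotypes. Their summed level was 1581 CPM in wt_resting, 1492 in Emu_resting and 1665 in 3RR_resting, against 3788 in wt_LPS, 3675 in Emu_LPS and 3957 in 3RR_LPS. Every LPS library lay above every resting library. The log2 ratio of the sums was 1.26 in wt, 1.30 in Emu and 1.25 in 3RR. In the fit with terms for genotype and state, 40 of 47 tested members rose, against 19.7% of all genes tested, and 0 fell, against 21.1% (edgeR quasi-likelihood test, Benjamini-Hochberg adjusted p under 0.05, which is what rose and fell mean throughout). The members' median log2 fold change was 1.24 and that of all genes tested was -0.07. The 3 LPS libraries were above the 3 resting libraries for 41 members, against 25% of all genes. The residual of this fit, with 2 degrees of freedom, is the departure from additivity and not the spread between mice. Additive fits with libraries left out have fewer residual degrees of freedom. A call lost there can come from a larger SE with no smaller estimate. Without Emu_resting, the library rich in erythroid RNA, an alternative chosen after seeing the data, 28 of 46 tested members rose, against 13.1% of all genes tested, with a member median of 1.26. Without both Emu libraries 32 of 46 did, against 15.0%, with a median of 1.36.

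**Figure D1:**
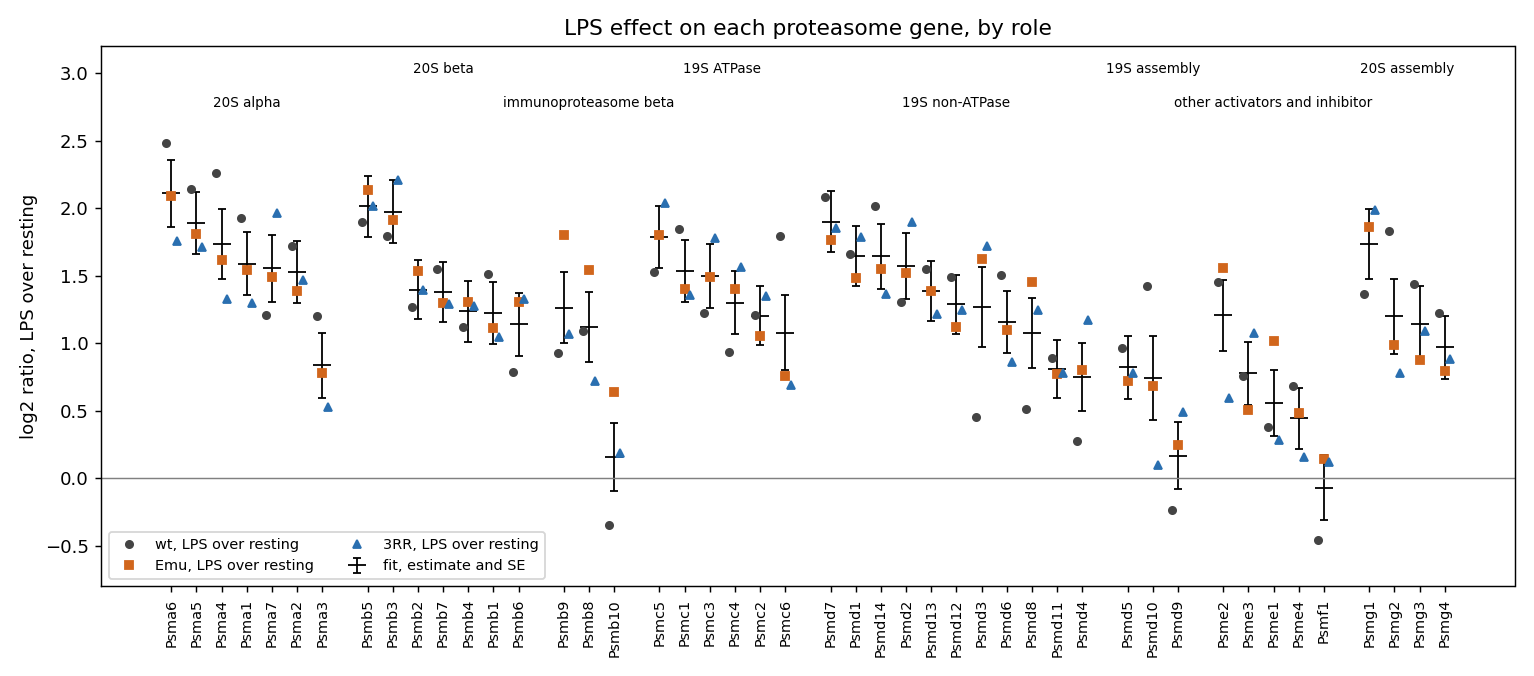
LPS effect on 46 proteasome genes, grouped by role. Points are log2 ratios of CPM, LPS over resting, in wt, Emu and 3RR cells, and black lines are the estimates of the fit with their SE; Psma8 and Psmb11, with few counts, are not drawn. Most points lie between 0.5 and 2, while Psmb10, Psmd9 and Psmf1 lie about 0.

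The alpha ring genes, which form the outer rings and the gate of the core, included the member with the largest estimate. Psma6 had 26.7 CPM in wt_resting, 31.5 in Emu_resting, 34.1 in 3RR_resting, 149 in wt_LPS, 134 in Emu_LPS and 115 in 3RR_LPS. All LPS libraries were at least 3 times the level of their resting counterpart, and the log2 fold change was 2.11 ± 0.25 (SE, adjusted p = 0.00034). Psma5 had 18.7, 20.99 and 20.7 CPM in resting wt, Emu and 3RR cells and 82.6, 73.5 and 67.9 CPM with LPS, a log2 fold change of 1.89 ± 0.23 (adjusted p = 0.00038). Of the 8 alpha genes 7 rose, with estimates from 0.84 for Psma3 to 2.11. Psma3 did not pass without the Emu libraries, at 0.96 ± 0.45, or without Emu_resting, at 0.86 ± 0.46, where its SE was larger than the 0.24 of the full fit. The remaining one, Psma8, encodes the alpha subunit of the testis and had 6, 19 and 1 counts in wt_resting, Emu_resting and 3RR_resting and 20, 4 and 0 counts in wt_LPS, Emu_LPS and 3RR_LPS. Its log2 fold change was -0.20 ± 0.87, and no direction can be read at these counts.

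The constitutive beta genes all rose. Psmb5, the chymotrypsin-like subunit, had 13.7 CPM in wt_resting, 10.1 in Emu_resting, 14.6 in 3RR_resting, 50.8 in wt_LPS, 44.3 in Emu_LPS and 58.8 in 3RR_LPS. The 2 states did not overlap, and the log2 fold change was 2.01 ± 0.22 (SE, adjusted p = 0.00027). Psmb3, a subunit without proteolytic activity, had 32.9, 28.4 and 35.7 CPM in resting wt, Emu and 3RR cells and 114, 107 and 165 CPM with LPS, a log2 fold change of 1.97 ± 0.23 (adjusted p = 0.00034). Psmb6, the caspase-like subunit, had 42.9, 30.6 and 40.4 CPM in resting wt, Emu and 3RR cells and 73.9, 75.5 and 101.6 CPM with LPS. Its estimate of 1.14 ± 0.23 was the smallest of the 7 beta genes (adjusted p = 0.0047), and without Emu_resting, where it was 1.05, it did not pass. Psmb7, the trypsin-like subunit, had 35.6, 35.5 and 36.0 CPM in resting wt, Emu and 3RR cells and 104, 87.2 and 88.0 CPM with LPS, and its estimate was 1.38 ± 0.22 (adjusted p = 0.0015). Psmb11, the thymus-specific beta subunit, had 0 counts in 5 libraries and 2 counts in 3RR_LPS, and was not tested.

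Of the 3 immunoproteasome genes 2 passed the test for LPS, and the difference between the genes was not tested. Psmb8, which replaces Psmb5, had 86.0 CPM in wt_resting, 72.5 in Emu_resting, 101 in 3RR_resting, 183 in wt_LPS, 211 in Emu_LPS and 167 in 3RR_LPS. The LPS libraries were all above the resting ones, with a log2 fold change of 1.12 ± 0.26 (SE, adjusted p = 0.0086). Psmb9, which replaces Psmb6, had 47.6, 53.9 and 65.5 CPM in resting wt, Emu and 3RR cells and 90.6, 188 and 137 CPM with LPS. Its highest level was in Emu_LPS, and its log2 fold change was 1.26 ± 0.26 (adjusted p = 0.0050). Neither Psmb8 nor Psmb9 passed without the Emu libraries, where the estimates were 1.00 and 1.09, or without Emu_resting alone, where they were 0.90 and 0.99. Psmb10, which replaces Psmb7, had 35.0, 25.2 and 32.4 CPM in resting wt, Emu and 3RR cells and 27.5, 39.3 and 36.8 CPM with LPS. The states overlapped, and the log2 fold change was 0.16 ± 0.25 (adjusted p = 0.65). Within genotypes, the log2 ratio of Psmb10 was -0.35 in wt (95% interval -0.51 to -0.18), 0.64 in Emu (0.43 to 0.85) and 0.18 in 3RR (-0.01 to 0.38). With the trend of all genes on GC content removed, the wt ratio turned to 0.27, and Psmb10 has the highest GC content of the members, 58.3%. These intervals, exact conditional binomial ones, cover counting error only, and the difference between genotypes was not tested.

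**Figure D2:**
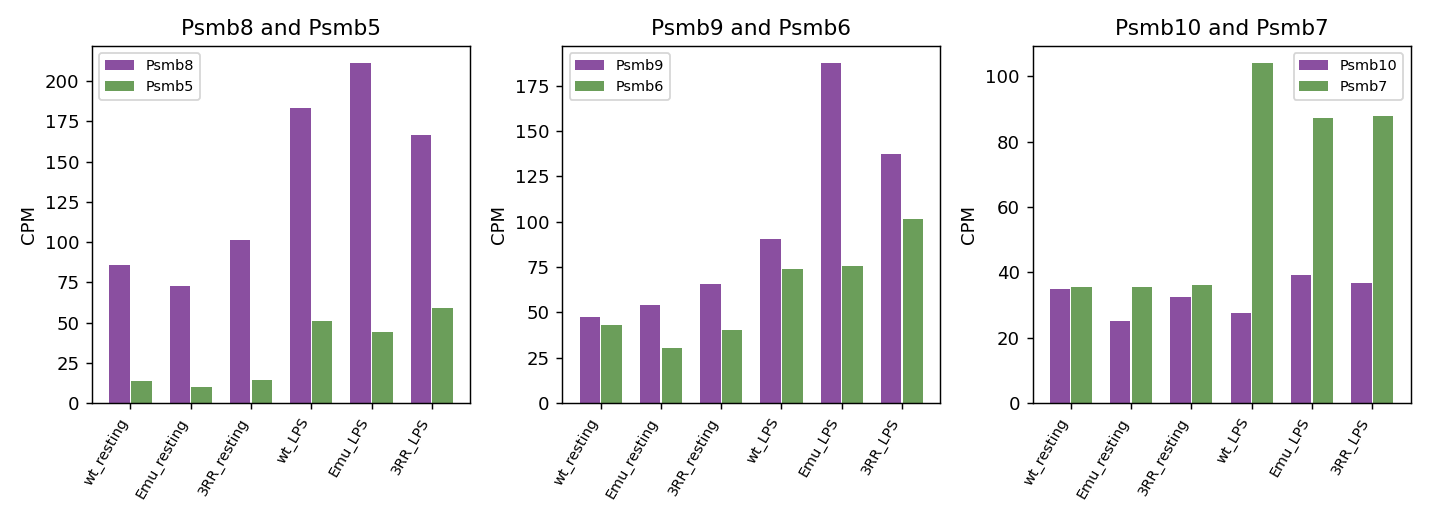
Level in CPM of each immunoproteasome gene (purple) and its constitutive counterpart (green) in the 6 libraries, 1 bar per library. Psmb5, Psmb6 and Psmb7 are higher in each LPS library than in the resting libraries, while Psmb10 runs from 25.2 to 39.3 CPM with the states overlapping.

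The share of counts that the immunoproteasome gene took in the sum with its counterpart does not depend on library scaling. For Psmb8 against Psmb5 it was 86.3% in wt_resting (95% Clopper-Pearson interval 84.6 to 87.9), 87.8% in Emu_resting (85.7 to 89.7) and 87.4% in 3RR_resting (86.0 to 88.7). With LPS it was 78.3% in wt (77.1 to 79.5), 82.7% in Emu (81.2 to 84.1) and 73.9% in 3RR (71.9 to 75.8). The intervals of these and the following shares cover counting error only. The mean share was 87.2% ± 0.779 (SD, n = 3) at rest and 78.3% ± 4.38 (SD, n = 3) with LPS. The difference was -8.87 points, and the share was lower with LPS in 3 of 3 genotypes. An exact two-sided permutation test gave p = 0.1, the smallest that 3 against 3 allows, and 0.15 adjusted over the 3 pairs. This test, used for all 3 gene pairs, exchanged libraries across genotypes and did not pair the states within genotype.

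For Psmb10 against Psmb7 the share was 49.5% in wt_resting (46.8 to 52.3), 41.6% in Emu_resting (38.1 to 45.1) and 47.3% in 3RR_resting (44.7 to 49.98). It was 20.9% in wt_LPS (19.4 to 22.4), 31.1% in Emu_LPS (28.6 to 33.6) and 29.5% in 3RR_LPS (26.8 to 32.3). The mean went from 46.1% ± 4.11 (SD, n = 3) to 27.1% ± 5.48 (SD, n = 3), lower in 3 of 3 genotypes, with the same exact permutation p = 0.1 and 0.15 adjusted. For Psmb9 against Psmb6 it was 52.6% in wt_resting (50.2 to 55.1), 63.8% in Emu_resting (60.9 to 66.6), 61.9% in 3RR_resting (59.8 to 63.9), 55.1% in wt_LPS (53.4 to 56.7), 71.3% in Emu_LPS (69.6 to 73.0) and 57.5% in 3RR_LPS (55.4 to 59.6). The share was higher with LPS in wt and Emu and lower in 3RR. The means were 59.4% ± 5.97 (SD, n = 3) and 61.3% ± 8.75 (SD, n = 3), and the exact permutation p was 0.8, also after adjustment.

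These shares do depend on the lengths of the 2 genes. Counted per kb of exonic length, the mean share of Psmb8 went from 64.4% at rest to 49.3% with LPS, a difference of -15.1 points, and in 3RR_LPS it was 43.0%. The mean share of Psmb10 went from 63.2% to 42.6%, with 66.3% in wt_resting and 34.6% in wt_LPS, while per kb of principal transcript Psmb10 was below Psmb7 in every library. Psmb9 had 43.0% at rest and 45.1% with LPS. The directions between states were those of the counts, and the level of a share is set by the unit. The shares were not adjusted for GC content, which was 58.3% for Psmb10 and 43.1% for Psmb7. Over 46 members, the Spearman correlation of the LPS over resting ratio with GC content was -0.39 in wt, 0.25 in Emu and 0.18 in 3RR. The part that GC content has in the shares was not tested.

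**Figure D3:**
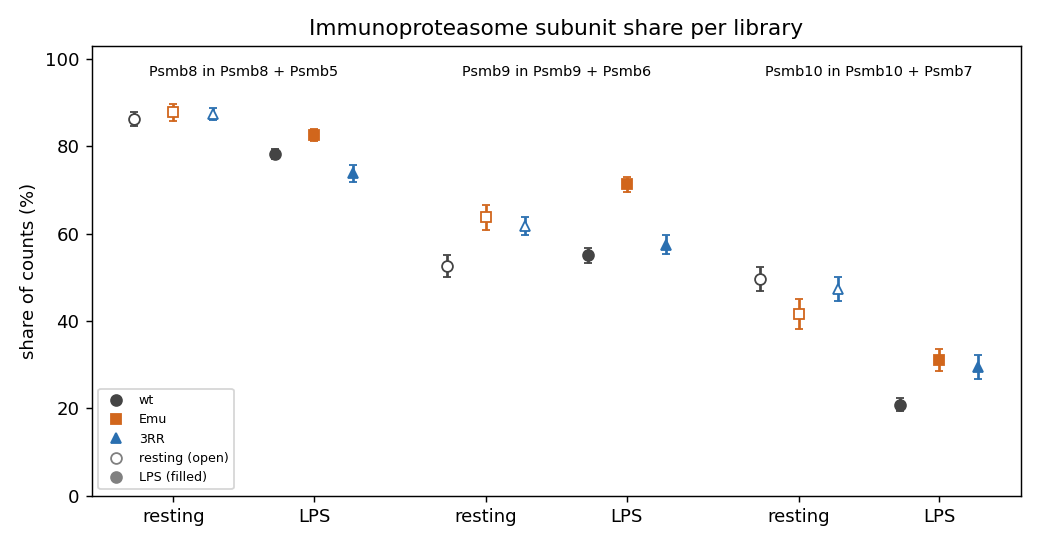
Share of counts of each immunoproteasome gene in the sum with its counterpart, in percent, per library, with 95% Clopper-Pearson intervals of counting error. The shares of Psmb8 and Psmb10 are lower in all LPS libraries (filled) than in all resting ones (open), and the shares of Psmb9 overlap.

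Each of the 17 ATPase and non-ATPase genes of the 19S cap under the name rule rose. All 6 ATPase genes, the ring that unfolds substrates, rose with estimates from 1.08 for Psmc6 to 1.79 for Psmc5. Psmc5 had 22.7 CPM in wt_resting, 16.9 in Emu_resting, 25.5 in 3RR_resting, 65.4 in wt_LPS, 58.7 in Emu_LPS and 105 in 3RR_LPS. All 11 non-ATPase genes rose, with estimates from 0.75 for Psmd4, a ubiquitin receptor, to 1.90 for Psmd7. Psmd4 (adjusted p = 0.0398) lost its call in 8 of the 13 alternatives, with estimates from 0.52 to 0.81, and Psmd11 in 4, with 0.82 to 0.92. Psmd8 lost it without the Emu libraries, at 0.97, and without Emu_resting, at 0.87, and Psmd3 without Emu_resting, at 1.08. Psmd7, a scaffold partner of the deubiquitinase Psmd14, had 14.9, 14.6 and 17.6 CPM in resting wt, Emu and 3RR cells and 63.0, 49.6 and 63.4 CPM with LPS, a log2 fold change of 1.90 ± 0.22 (SE, adjusted p = 0.00034).

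All 4 assembly chaperones of the core rose. Psmg1 had 7.16, 5.45 and 7.01 CPM in resting wt, Emu and 3RR cells and 18.4, 19.8 and 27.8 CPM with LPS, a log2 fold change of 1.73 ± 0.26 (SE, adjusted p = 0.0010). Its partner Psmg2 had 8.87, 12.05 and 11.3 CPM at rest in that order and 31.5, 23.9 and 19.3 CPM with LPS, an estimate of 1.20 ± 0.28 (adjusted p = 0.0085). Psmg3 had 4.02, 4.39 and 4.28 CPM at rest and 10.9, 8.07 and 9.11 CPM with LPS, an estimate of 1.14 ± 0.29 (adjusted p = 0.012). Psmg4 had 13.7, 13.4 and 16.3 CPM at rest and 31.9, 23.3 and 29.9 CPM with LPS, an estimate of 0.97 ± 0.23 (adjusted p = 0.0097). For each of the 4 the states did not overlap. With the trend on transcript length removed Psmg3, at 0.80, and Psmg4, at 0.59, did not pass, and without Emu_resting Psmg4 did not, at 1.05.

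Of the 3 chaperones of the 19S base, 1 rose. Psmd5 had 12.01, 11.7 and 11.5 CPM in resting wt, Emu and 3RR cells and 23.5, 19.2 and 19.7 CPM with LPS, a log2 fold change of 0.82 ± 0.23 (SE, adjusted p = 0.020). It lost its call in 4 of 13 alternatives, those without the Emu libraries, the 3RR libraries, 3RR_LPS or Emu_resting, with estimates from 0.83 to 0.96. In these 4 the SE of Psmd5 was 0.36 to 0.44, so the calls were lost with no smaller estimate. Psmd10, or gankyrin, had 6.28, 10.5 and 8.81 CPM at rest and 16.8, 16.9 and 9.45 CPM with LPS. The states overlapped, since 3RR_LPS was below Emu_resting, and the estimate was 0.74 ± 0.31 (adjusted p = 0.082). It was called in 4 of the 13 alternatives, with no filter (0.77), with the GC trend removed (0.70), without the 3RR libraries (1.04) and without 3RR_LPS (1.06). No difference between the chaperones of the base and of the core was tested. Psmd9 had 17.9, 14.7 and 19.5 CPM at rest and 15.2, 17.4 and 27.3 CPM with LPS, an estimate of 0.17 ± 0.25 (adjusted p = 0.61).

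Activators and the inhibitor had the lowest median estimate of the roles, 0.56, against 0.74 for the 19S assembly genes and 1.57 for the alpha genes, and these differences were not tested. By the log2 ratio of summed CPM the 19S assembly genes were lower, at 0.62 in wt, 0.54 in Emu and 0.51 in 3RR against 0.69, 0.86 and 0.54. Psme2, which forms the PA28 ring with Psme1, had 33.7, 45.7 and 47.5 CPM in resting wt, Emu and 3RR cells and 92.3, 134 and 71.9 CPM with LPS, a log2 fold change of 1.21 ± 0.26 (SE, adjusted p = 0.0066) that did not pass without Emu_resting, where it was 1.02. Psme1 had 66.9, 54.8 and 73.0 CPM at rest and 86.9, 111 and 88.6 CPM with LPS. It missed the threshold with 0.56 ± 0.24 (adjusted p = 0.097), although the states did not overlap, and it was called with the GC trend removed, at 0.64, and without the wt libraries, at 0.67. Its estimate was lower, and not called, with the length trend removed, at 0.27, and without Emu_resting, at 0.32. Psme3, the nuclear activator, had 68.4, 67.4 and 58.8 CPM at rest and 115, 95.5 and 124 CPM with LPS, an estimate of 0.78 ± 0.23 (adjusted p = 0.026), and lost its call in 5 of the 13 alternatives. It was at 0.68 with total-count scaling, 0.62 without the 3RR libraries, 0.63 without 3RR_LPS, 1.01 without the Emu libraries and 0.91 without Emu_resting. Psme4, or PA200, had 45.2, 57.5 and 47.1 CPM at rest and 72.7, 80.5 and 52.4 CPM with LPS, an estimate of 0.44 ± 0.23 (adjusted p = 0.15), and was called with the GC trend removed, at 0.42, and with the length trend removed, at 0.74. The inhibitor gene Psmf1 had 25.2, 19.3 and 21.7 CPM at rest and 18.3, 21.3 and 23.5 CPM with LPS, and its estimate of -0.07 ± 0.24 did not pass (adjusted p = 0.84). Psme2 has a near-identical copy, Psme2b, aligned over 794 bases at 99.4% identity, which held 1018 counts against 6193 for Psme2, so the count of Psme2 is uncertain. In all, 11 members had such a copy of at least 150 bases at 95% identity, and among the copies that are in the count table only that of Psme2 held more than 5% of its member's counts. The table lacks 3 of the copies, 1 each of Psmb3, Psmb5 and Psmc1, and their share is unknown.

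Per kb of principal transcript the order of the levels differed from the CPM. In wt_resting, Psme1 at 60.2 CPM per kb, Psmb6 at 53.7, Psmb8 at 52.8 and Psma7 at 51.6 led, and Psmd5 at 2.73 was low. In wt_LPS, Psmb3 at 149 and Psma6 at 143 led, followed by Psma7 at 119 and Psmb8 at 113.

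In neither genotype did a member pass the test against wt. For the Emu coefficient 0 of 47 members were called, against 1.16% of all genes, and 0 had an unadjusted p under 0.05 (edgeR quasi-likelihood test). With the trend on GC content removed, 2 members had an unadjusted p under 0.05 in that test, and 0 were called. DESeq2 also called 0. For the 3RR coefficient 0 of 47 were called, against 0.678% of all genes, with 1, Psma8, at an unadjusted p under 0.05, and DESeq2 called 0. Psma8, at 0 to 20 counts, had the lowest 3RR estimate of all members, -4.07 ± 1.39 (SE, adjusted p = 0.59), and an Emu estimate of 0.44 ± 0.90. Among the 46 members with more than 10 counts in every library, the highest Emu estimates were 0.63 ± 0.32 (SE) for Psmb9, 0.50 ± 0.32 for Psme2 and 0.33 ± 0.37 for Psmd10, and the lowest were -0.52 ± 0.36 for Psmd3, -0.42 ± 0.28 for Psmd6 and -0.34 ± 0.30 for Psmd4. Among the same 46, the highest 3RR estimates were 0.53 ± 0.31 for Psmb9, 0.48 ± 0.30 for Psmd9 and 0.45 ± 0.28 for Psmc3, and the lowest were -0.44 ± 0.34 for Psmc6, -0.40 ± 0.28 for Psmd6 and -0.23 ± 0.27 for Psma2. With the trend on GC content removed, these 3RR estimates were 0.33 for Psmb9, 0.41 for Psmd9 and 0.26 for Psmc3. Those of Psmc6, Psmd6 and Psma2 were then -0.11, -0.34 and 0.13. With 1 library per genotype and state there is no test of genotype within a state.

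Within a state, the ratios of libraries have no replicate check and are descriptions. In resting cells, 2 members lay past 2-fold between Emu and wt, Psma8 and Psmd3, against 18.2% of all genes. Psmd3, a 19S lid subunit, had 47.3 CPM in wt_resting and 22.7 in Emu_resting, a log2 ratio of -1.06 (95% interval -1.26 to -0.87). In resting 3RR against wt, only Psma8 lay past 2-fold, against 9.33% of all genes. With LPS, 2 members lay past 2-fold between Emu and wt, Psma8 and Psmb9, against 12.5% of all genes, and the log2 ratio of Psmb9 was 1.05 (0.96 to 1.14). In LPS-treated 3RR against wt, 1 member, Psma8, did, against 26.6% of all genes. The share of members past 2-fold was below that of all genes tested in each of the 4 comparisons, and this difference was not tested. A gene was tested if it reached 10 counts in 2 libraries, while 46 members had more than 10 counts in every library. Psma8 rests on few counts.

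Psma8 had the outermost ratio in each comparison, 2.12 for Emu and -1.18 for 3RR at rest and -1.35 for Emu and -1.50 for 3RR with LPS, with counts under 3 set to 3. The lists that follow cover the 46 members with more than 10 counts in every library. For Emu over wt at rest, after Psmd3, the lowest were Psmd4 at -0.59 and Psmc4 at -0.56, and the highest were Psmd10 at 0.75, Psmg2 at 0.44 and Psmc6 at 0.44. For 3RR over wt at rest they were Psmd3 at -0.27, Psma7 at -0.25 and Psmf1 at -0.22, and Psme2 at 0.49, Psmd10 at 0.49 and Psmb9 at 0.46. For Emu over wt with LPS they were Psmd6 at -0.61, Psmc6 at -0.60 and Psmg4 at -0.46, and Psmb9, Psmd8 at 0.56 and Psme2 at 0.54. For 3RR over wt with LPS they were Psmc6 at -0.96, Psmd10 at -0.83 and Psmd6 at -0.71, and Psmd3 at 0.99, Psmd9 at 0.84 and Psmc3 at 0.73.

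The ratios varied with base composition in 3 of these 4 comparisons. Over the 46 members, the Spearman correlation of the ratio with GC content of the transcripts was -0.65 for Emu over wt at rest, -0.10 for 3RR over wt at rest, 0.42 for Emu over wt with LPS and 0.70 for 3RR over wt with LPS. Over all genes with a GC value it was -0.38, -0.17, 0.25 and 0.57 in that order. The genes share the 2 libraries of each ratio and are not independent replicates. Once the trend on GC content was removed, the 6 members named for 3RR over wt with LPS were at -0.15 (Psmc6), -0.13 (Psmd10), -0.51 (Psmd6), 0.40 (Psmd3), 0.71 (Psmd9) and 0.31 (Psmc3). Psmd3 was at -0.69 for Emu over wt at rest, no longer past 2-fold, and Psmb9 at 0.92 for Emu over wt with LPS. The relative amounts of 35 spike-in RNAs differed from those of the wt library of the same state with an SD (log2) of 1.27 in 3RR_LPS, 0.44 in Emu_LPS, 0.48 in Emu_resting and 0.16 in 3RR_resting.

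**Figure D4:**
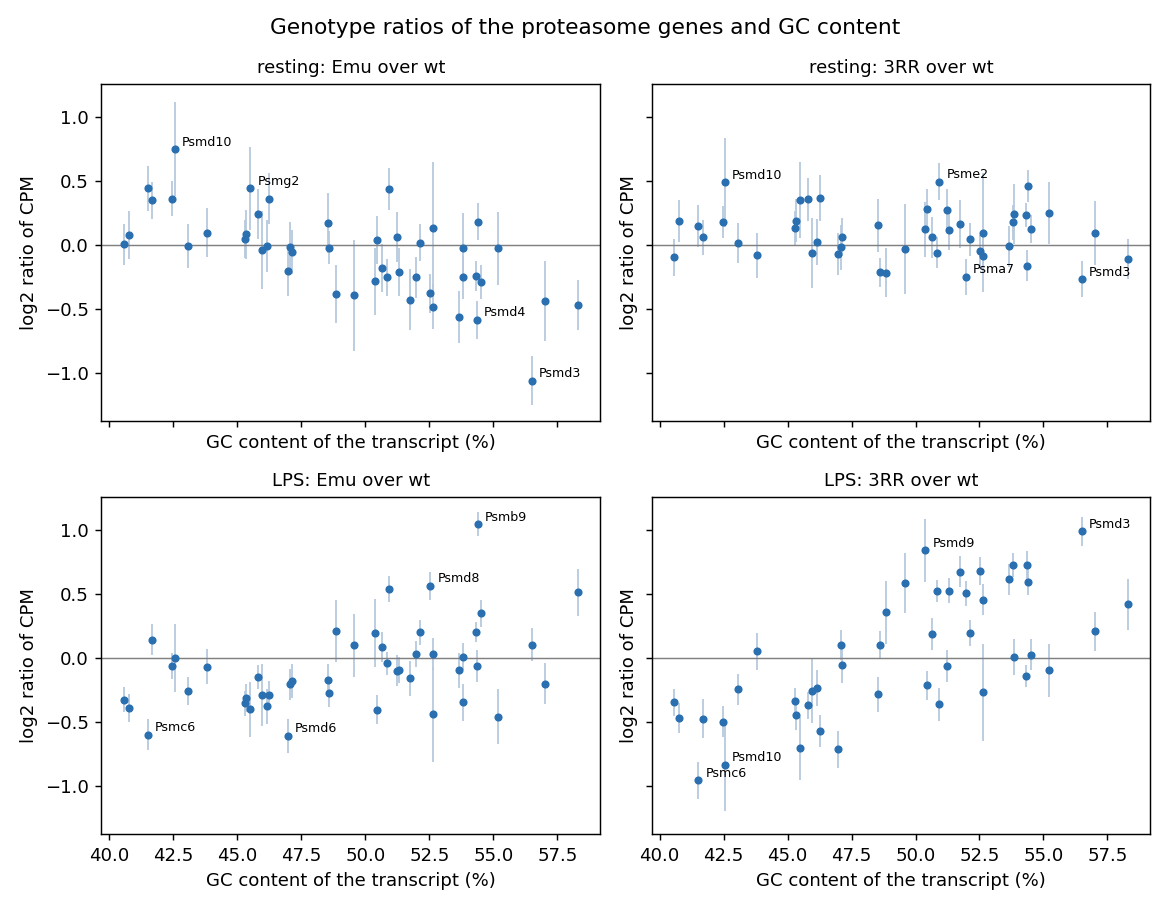
Log2 ratio of CPM to wt of 46 proteasome genes against the GC content of their transcripts, by genotype and state, with 95% intervals of counting error. Ratios fall with GC content for Emu at rest and rise with it for 3RR with LPS, where the Spearman correlations are -0.65 and 0.70.

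Genes of the same pathway outside the name rule are given beside the 19.7% of all genes tested that rose with LPS and the 21.1% that fell; no test compares these lists with the members. Of 4 further subunit and assembly genes, 2 rose, Pomp, the chaperone of core maturation, by a log2 fold change of 1.09 ± 0.23 (SE, edgeR adjusted p = 0.0059) and Shfm1, a small 19S subunit, by 1.00 ± 0.30 (adjusted p = 0.025), and Adrm1 and AI314180 did not pass. Of 4 deubiquitinases and ligases 1 rose, Uchl5, by 1.44 ± 0.32 (adjusted p = 0.0077). Of 8 genes of the NRF1 route, which raises proteasome transcription when degradation falls short, Vcp rose by 1.21 ± 0.25 (adjusted p = 0.0048) and Sel1l by 0.70 ± 0.23 (adjusted p = 0.037), while Nfe2l2, the gene of the related factor NRF2, changed by -1.06 ± 0.23 (adjusted p = 0.0063). The gene for NRF1 itself, Nfe2l1, had an estimate of 0.29 ± 0.23 (adjusted p = 0.35). Of 9 ubiquitin and shuttle genes 2 rose and 1 fell, with the largest estimates -1.10 ± 0.27 for Zfand5 (adjusted p = 0.010), 0.86 ± 0.23 for Rad23b (adjusted p = 0.015) and 0.85 ± 0.34 for Rps27a (adjusted p = 0.074). Rps27a did not pass, and the 2 that rose were Rad23b and Uba1, the latter by 0.84 ± 0.29 (edgeR adjusted p = 0.046).

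Peptide loading and interferon genes are read beside the immunoproteasome. No test compares their counts with the 19.7% of all genes tested that rose with LPS or the 21.1% that fell. Of 10 class I loading genes 3 rose, the chaperones Canx by 1.66 ± 0.29 (SE), Calr by 1.43 ± 0.26 and Pdia3 by 1.43 ± 0.25. Tap1 and Tap2, the peptide transporter encoded beside Psmb8 and Psmb9 in the MHC region, had estimates of 0.49 ± 0.34 (adjusted p = 0.28) and 0.12 ± 0.26 (adjusted p = 0.72). Of 6 interferon and class I regulators 0 rose and 1 fell, Cd274, by -2.50 ± 0.27 (edgeR adjusted p = 0.00024).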

How the data were processed

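The authors aligned paired reads of stranded, rRNA-depleted libraries and deposited raw counts per gene; their processing notes name STAR 2.4.0a, featureCounts, Subread 1.4.6-p1 and the mm10 build. Of 47055 names, 44131 were found in GENCODE M21 and 791 through an older name. Spike-ins were left out of library sizes. Genes reaching 10 counts in 2 or more libraries were fitted with edgeR 4.0.16 (TMM, quasi-likelihood test, terms for genotype and state), and p-values were adjusted over all 14600 genes by Benjamini-Hochberg at 0.05. The fit was tested on simulated data with the same dispersion for every gene, LPS changes shared by all genotypes and no genotype effect. That setting is simpler than these data. A ratio against a library under 3 counts used 3 counts. Alternatives were other scalings, filters, DESeq2 1.42.0, trends on GC content or length removed, and libraries left out. Members and gene lists were chosen with earlier results of these data known. Named genes are the immunoproteasome genes and their counterparts, assembly genes, activators and the inhibitor, the 5 largest and 5 smallest LPS estimates, the 3 highest and 3 lowest of each genotype comparison, members at 10 counts or fewer, and up to 3 genes of each related list; 3 genes first in these lists are not reported here; Nfe2l1, Tap1, Tap2 and others were named after their values were seen.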

Additional observations from a re-analysis of the deposited data

Results flagged for a closer look

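In these data 3 members had LPS over resting log2 ratios of opposite sign in 2 genotypes, each with a counting interval that leaves out 0, or 6.38% of the members tested against 10.8% of all genes tested. The ratio of Psmb10 was -0.35 in wt, 0.64 in Emu and 0.18 in 3RR cells. After removal of the GC trend, the wt value of Psmb10 turned to 0.27 and that of Psmd9 was -0.19. The ratio of Psmd9 as measured was -0.23 in wt, 0.25 in Emu and 0.49 in 3RR cells. Psma8, at 20 counts or fewer in each library, had 1.53 in wt and -1.94 in Emu cells. These differences between genotypes were not tested, since each group is 1 library.

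For 3RR over wt, 15 members had ratios of opposite sign at rest and with LPS, each interval leaving out 0, or 31.9% of the members tested against 17.6% of all genes tested, and the difference was not tested. In each comparison flagged here, deeper counts give narrower intervals, so these shares depend on depth. While 46 members had more than 10 counts in every library, a gene was tested if it reached 10 counts in 2 libraries. Higher at rest and lower with LPS were, in that order of states, Psma1 0.19 and -0.44, Psma3 0.18 and -0.50, Psma4 0.37 and -0.57, Psma6 0.36 and -0.37, Psmb8 0.23 and -0.14, Psmc1 0.28 and -0.21, Psmd10 0.49 and -0.83, Psmd14 0.19 and -0.47, Psme2 0.49 and -0.36 and Psmg2 0.35 and -0.71. Lower at rest and higher with LPS were Psma7 -0.25 and 0.51, Psmd3 -0.27 and 0.99, Psmd4 -0.16 and 0.73, Psme3 -0.22 and 0.11 and Psmf1 -0.22 and 0.36. The median GC content was 45.6% for the former and 52% for the latter. With the trend on GC content removed, 13 of the 15 still had opposite signs, without regard to intervals.

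For Emu over wt, 8 members, or 17.02% against 15.95% of all genes tested, had ratios of opposite sign at rest and with LPS, each interval leaving out 0, and the difference was not tested. Higher at rest and lower with LPS were, in that order of states, Psma4 0.36 and -0.29, Psma6 0.24 and -0.15, Psmc6 0.44 and -0.60 and Psmg2 0.44 and -0.40. Lower at rest and higher with LPS were Psmb8 -0.25 and 0.20, Psmb10 -0.47 and 0.52, Psmd8 -0.38 and 0.56 and Psme1 -0.29 and 0.35. The median GC content was 45.6% for the former and 54.4% for the latter. With the trend on GC content removed, 6 of the 8 still had opposite signs, without regard to intervals.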

How the results depend on the processing

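Members that passed the test with a higher level in LPS libraries numbered 28 to 43 over all alternatives, against 40, and 0 passed with a lower level in each of them. No member passed the test for either genotype under any alternative run. Of all genes, 5962 passed for LPS, 3749 with at least 50 counts in every library, 6552 without a filter, 7326 with the GC trend removed, the most of any alternative, and 3960 to 6655 with libraries left out, the lowest without the Emu libraries. For Emu, 170 genes passed against 340 with DESeq2, 605 without a filter, 56 with the 50-count filter, 393 in the wt and Emu libraries alone and 421 without 3RR_LPS. For 3RR, 99 passed against 178, 339 and 2 in the same order, 177 in the wt and 3RR libraries alone and 183 without Emu_resting, an alternative chosen after seeing the data. Estimates near 0 changed sign. With the length trend removed, Psmb10 was at -0.078 and Psmf1 at 0.065 for LPS, and with the GC trend removed Psma2 was at 0.13 for 3RR. Leaving out libraries gave -0.090 to 0.43 for Psmb10, -0.010 to 0.40 for Psmd9 and -0.18 to 0.15 for Psmf1. Members past 2-fold went from 2 to 1 with the GC trend removed for Emu over wt in each state, and from 1 to 0 for 3RR over wt with LPS, or to 2 with total-count scaling. The share of Psmb9 differed between states by -0.96 to 4.98 points when a genotype was left out. The labels give no replicate numbers that tie libraries to mice. The methods describe cells of each genotype before and after stimulation, so the 2 states of a genotype may share mice. The fit compares the states within genotype, and with no genotype term 39 members passed as higher. Causes were not tested. With 1 library per group, neither spread between mice nor genotype within a state can be measured.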
